A study of Macaca mulatta with 24 samples.

Results

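Gut hormones and enteroendocrine genes were followed in the colon of rhesus macaques after total-body irradiation (TBI). The 10 genes chosen were GIP, GCG, PYY, SST, CCK, NTS, CHGA, CHGB, INSL5 and TPH1, and every probe that the array tables name for one of them was taken. Of the 10, 9 were found on the array, with 12 probes, among 14767 named genes tested in all. CCK, which encodes cholecystokinin, had no probe by that name and is not analysed here. CHGA had 3 probes, TPH1 had 2 and the other genes had 1 each. All 12 probes passed the filter on dim probes, and where a gene had several, the probe with the highest mean signal stood for it in counts.

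Enteroendocrine cells are scattered, hormone-secreting cells of the gut epithelium that arise from the same crypt stem cells as absorptive and goblet cells. They sense nutrients, bacterial products and stretch from the lumen and release peptides or serotonin that act on motility, secretion, appetite and insulin release. In the colon the best known are L cells, which make PYY, the products of GCG and INSL5, and enterochromaffin cells, which make serotonin. D cells make somatostatin. GIP is made by K cells, which are known mainly from the upper small intestine. Chromogranins are proteins of the hormone-storing granules, and prohormone convertases cut hormone precursors into active peptides.

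Each of the 24 arrays held colon RNA from 1 young-adult male animal, taken as whole gut tissue. The 4 control animals were sham-irradiated, are labelled day 4 and served every comparison with control, so those comparisons share them. Irradiated animals received a single whole-body gamma dose of 6.7 or 7.4 Gy from a cobalt-60 source and were examined 4 days later (4 animals per dose), 7 days later (4 per dose) or 12 days later (2 per dose). A general protocol text gives another last day than the labels of the samples, which were followed. Values are log2 signals relative to the 75th percentile of the same array, so a difference of 1 is 2-fold, and the level of a probe cannot be set against that of another probe. A gene was called at a Benjamini-Hochberg adjusted p under 0.05 in limma with at least a 2-fold change, and "above background" is the scanner software's own call for a spot.

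Between 66.7% and 85.0% of the spots on an array were above background, no spot was saturated, and arrays of a group correlated at 0.959 to 0.983. The colon and epithelial markers CDX2, EPCAM, VIL1, MUC2 and the colonocyte carbonic anhydrase CA1 were above background on all 4 control arrays, as was the muscle gene DES, while MYH11 has no probe by name. The place of the array on its slide followed the groups. All control arrays lay at position 1, the day 4 arrays of 6.7 Gy at positions 1 and 2, those of 7.4 Gy at position 2, and the arrays of days 7 and 12 at positions 3 and 4. Position and day therefore cannot be told apart in comparisons of days 7 and 12 with day 4 or control. Day 4 after 7.4 Gy also shared no position with control, so dose and position are parted there only through the day 4 arrays of 6.7 Gy. Its arrays were all of scan day 2, while control had scan days 1 and 2. In whole tissue, fewer cells of a type and less RNA per cell cannot be told apart either.

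Against control, GIP fell on day 4 at both doses, and INSL5 and PYY fell and CHGB rose on day 4 after 7.4 Gy. On day 4 after 6.7 Gy, 1 of the 9 genes was called, beside 4.07% of all genes. On day 4 after 7.4 Gy 4 of 9 were called, beside 8.05% of all genes, with 1 higher and 3 lower. On day 7 none of the 9 was called by limma at either dose, where 0.386% of all genes were called after 6.7 Gy and 0.467% after 7.4 Gy. On day 12 none was called either, beside 0.0135% and 0.0203% of all genes. At an unadjusted p under 0.05, 3 and 1 of the 9 passed on day 7 and 1 and 1 on day 12, in the order of 6.7 and 7.4 Gy, and the methods' t-test called 0 in each of these groups. The median change of the 9 genes on day 4 was 0.02 after 6.7 Gy and 0.10 after 7.4 Gy, beside -0.04 and -0.03 over all genes, since members moved in both directions.

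GIP encodes the glucose-dependent insulinotropic polypeptide, an incretin that raises insulin release after a meal. In the 4 control arrays its log2 signal was -3.08, -2.36, -3.47 and -2.46. On day 4 after 6.7 Gy it was -5.33, -7.57, -4.38 and -3.86, and after 7.4 Gy -7.34, -5.13, -7.62 and -6.56. Every day 4 array lay below every control array, and the spot was above background on 2 of the 4 arrays at 6.7 Gy and 1 of the 4 at 7.4 Gy. On day 7 the values were -1.99, -2.27, -2.16 and -1.93 after 6.7 Gy and -2.90, -1.77, -2.56 and -2.01 after 7.4 Gy. On day 12 they were -1.88 and -1.94 after 6.7 Gy and -2.26 and -2.12 after 7.4 Gy. All arrays of days 7 and 12 were above background and above all 8 arrays of day 4.

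GIP was 5.44-fold lower than control on day 4 after 6.7 Gy (log2 change -2.44, SE 0.59, adjusted p = 0.0149) and 14.1-fold lower after 7.4 Gy (-3.82, SE 0.59, adjusted p = 0.000285). From day 4 to day 7, over both doses, it rose 13.7-fold (3.78, SE 0.42, adjusted p = 1.45e-05), where 4.84% of all genes were called. From day 4 to day 12 it rose 15.2-fold (3.93, SE 0.51, adjusted p = 5.63e-05), where 7.35% were called. On days 7 and 12 its 4 group means lay 0.54 to 0.93 above control, and none of these differences was called (adjusted p from 0.744 to 0.921). In the order of group means, the only neighbours whose arrays did not overlap were control and day 4 after 6.7 Gy. Because most day 4 spots were at background, the size depends on how background is handled. With normexp correction of the spot signal the changes on day 4 were -1.19 and -1.63 and those to days 7 and 12 were 1.78 and 1.94, all still called, while at 6.7 Gy the call was lost with the methods' t-test (adjusted p = 0.184), with these groups fitted alone (0.106) and with slide as a fixed block (0.0725).

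INSL5 encodes insulin-like peptide 5, a colonic L cell hormone that acts through the receptor RXFP4. Its control values were -3.74, -1.45, -2.27 and -2.69. On day 4 they were -3.14, -4.60, -2.96 and -5.50 after 6.7 Gy and -7.64, -4.59, -6.78 and -4.94 after 7.4 Gy. The 7.4 Gy arrays lay below all control arrays, with 2 of the 4 above background, while the 6.7 Gy arrays overlapped control. On day 7 the values were -1.75, -2.85, -1.71 and -0.70 after 6.7 Gy and -2.77, -3.73, -3.51 and -2.98 after 7.4 Gy. On day 12 they were 1.34 and -2.19 after 6.7 Gy and -1.77 and -2.77 after 7.4 Gy. The value of 1.34 was the highest of the 24 arrays, and the other 3 arrays of day 12 lay within the control range.

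INSL5 was 10.9-fold lower than control on day 4 after 7.4 Gy (-3.45, SE 0.77, adjusted p = 0.00441), while the change of -1.51 after 6.7 Gy was not called (SE 0.77, adjusted p = 0.226). After that it rose, 5.74-fold from day 4 to day 7 (2.52, SE 0.55, adjusted p = 0.00252) and 12.8-fold to day 12 (3.67, SE 0.67, adjusted p = 0.000755). All neighbours in the order of its group means overlapped. The change to day 12 was 2.79 without the day 12 array at 1.34 and 4.56 without the other day 12 array of 6.7 Gy, and was called in both cases. With normexp the change at 7.4 Gy was -1.41 and the changes from day 4 were 1.11 and 2.0, all still called. The call at 7.4 Gy was lost with the methods' t-test (adjusted p = 0.0566) and with array position as a fixed block (0.185).

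PYY encodes peptide YY, which slows gut transit and lowers appetite. Its control values were 0.59, 0.61, 1.36 and 0.24. On day 4 they were -0.20, -0.73, 0.20 and -0.63 after 6.7 Gy and 0.36, -1.67, -1.39 and -0.93 after 7.4 Gy. The 6.7 Gy arrays lay below the lowest control array, the nearest by little, and 1 of the 7.4 Gy arrays lay within the control range. On day 7 the values were -1.24, -0.31, -1.22 and -0.96 after 6.7 Gy and -0.60, -0.17, 0.24 and -0.55 after 7.4 Gy. On day 12 they were 1.97 and 0.72 after 6.7 Gy and 1.24 and 0.68 after 7.4 Gy, above every array of days 4 and 7.

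PYY was 3.04-fold lower than control on day 4 after 7.4 Gy (-1.60, SE 0.38, adjusted p = 0.00679). After 6.7 Gy it differed from control by -1.04 on day 4 (SE 0.38, adjusted p = 0.0910) and by -1.63 on day 7 (SE 0.38, adjusted p = 0.0711), neither of them called. Both were called with normexp (adjusted p = 0.0225 and 0.0259), and the day 7 difference also with slide as a random block (0.0357). Between days 4 and 7, where GIP and INSL5 were called higher, the change of PYY over both doses was 0.02 (SE 0.27, adjusted p = 0.962). Its group mean went from -0.34 to -0.93 after 6.7 Gy and from -0.91 to -0.27 after 7.4 Gy, and these opposite moves were not tested. By day 12 PYY was 3.42-fold higher than on day 4 (1.78, SE 0.33, adjusted p = 0.000923) and 3.37-fold higher than on day 7 (1.75, SE 0.33, adjusted p = 0.0396), the last in a comparison where 0.135% of all genes were called. The call on day 4 was lost with the methods' t-test (adjusted p = 0.0948) and with array position as a fixed block (0.103), and the call of day 12 against day 7 under 8 of 22 other settings and without any 1 of 10 arrays.

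**Figure D1:**
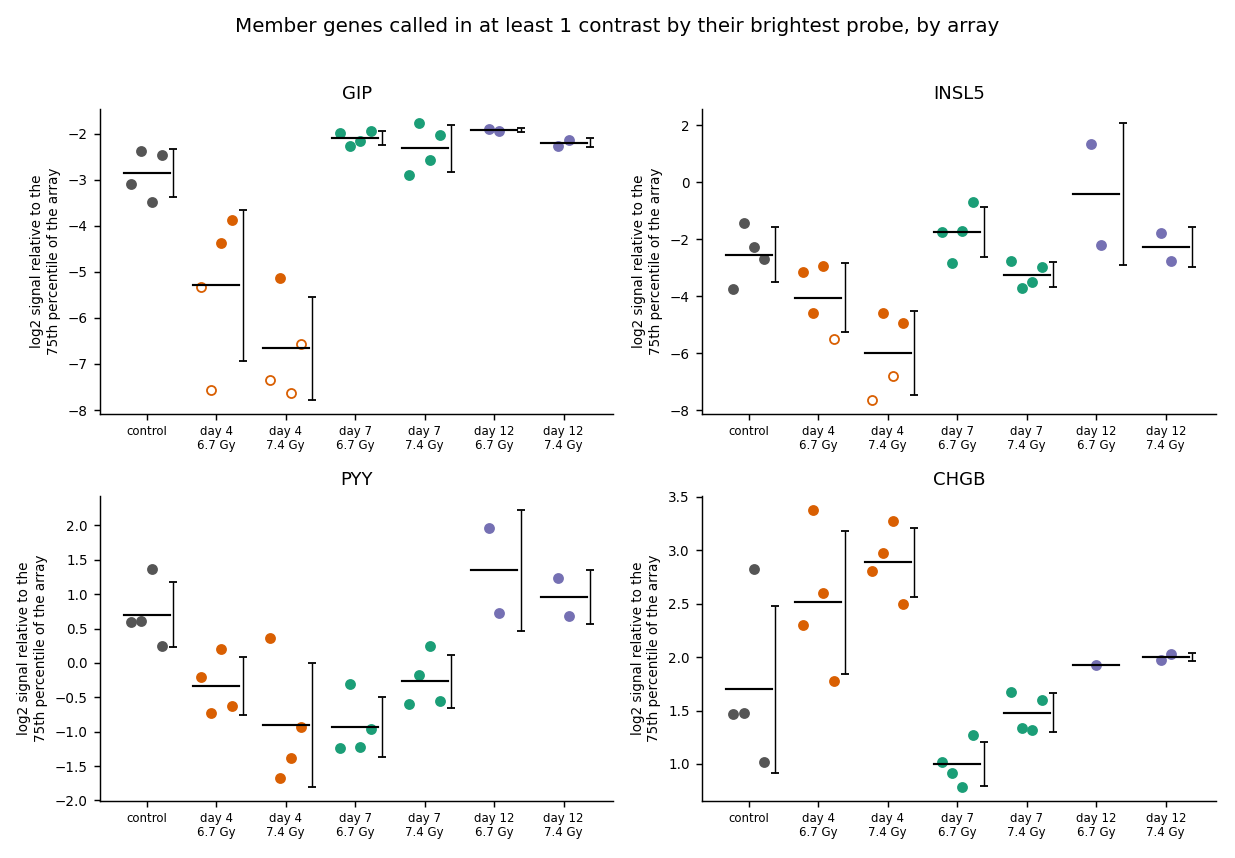
Log2 signal of GIP, INSL5, PYY and CHGB relative to the 75th percentile of each array (vertical axis) in the control group and the 6 dose-by-day groups (horizontal axis). Each point is 1 array and so 1 animal, open points are spots not above background, the short line is the group mean and the bar beside it is the SD. The 8 GIP points of day 4 sit below all control points and those of days 7 and 12 do not, PYY is highest on day 12, and CHGB is highest on day 4.

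GCG encodes proglucagon, the precursor of GLP-1 and other L cell peptides. Its control values were -1.13, 0.04, -0.26 and -0.73. On day 4 they were 0.34, -0.82, -0.28 and -0.61 after 6.7 Gy and 0.70, -0.85, 0.00 and -0.70 after 7.4 Gy, which overlapped control at both doses. Over all arrays it lay between -1.53, in a day 7 array after 6.7 Gy, and 1.25, in a day 12 array after 7.4 Gy. No comparison called it, and its changes on day 4 were 0.18 and 0.31 (SE 0.41 each, adjusted p = 0.831 and 0.642), where those of PYY, made by the same type of cell, were negative. All neighbours in the order of its group means overlapped.

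SST encodes somatostatin, which restrains the release of other gut hormones. Its control values were 1.81, 1.30, 2.54 and 1.29. On day 4 they were 0.77, 0.96, 0.68 and 0.34 after 6.7 Gy and 0.90, 1.52, 1.46 and 1.29 after 7.4 Gy. All 4 arrays at 6.7 Gy lay below control and those at 7.4 Gy overlapped it. The difference at 6.7 Gy was -1.05 on day 4 (SE 0.36, adjusted p = 0.0707) and -1.03 on day 7 (SE 0.36, adjusted p = 0.294), and neither was called. The day 4 difference was called with normexp (adjusted p = 0.0286) and when either day 12 array of 6.7 Gy was left out (0.0219 each). Those day 12 arrays are not part of this difference, which stayed at -1.05 without them. Leaving them out changed only the spread that the fit estimates over all groups.

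NTS encodes neurotensin, a peptide of distal gut endocrine cells. Its spot was above background on none of the 4 control arrays and none of the 8 arrays of day 4. It was above background on 2 of 4 arrays on day 7 after 6.7 Gy (-5.09 and -4.45), on 1 of 4 after 7.4 Gy (-4.67) and on 1 of 2 on day 12 after 7.4 Gy (-5.57). It passed the filter through these 4 arrays alone, and no comparison called it. Its lowest adjusted p was 0.0787, for day 12 against day 4, where the methods' t-test and a fit of these groups alone passed (adjusted p = 0.0371 and 0.0336). In that comparison 1 of 4 arrays of day 12 and 0 of 8 of day 4 were above background. These p-values compare mostly background spots and cannot decide whether NTS rose.

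CHGA and CHGB encode chromogranins A and B, the granule proteins used as general markers of endocrine cells. For CHGB the control values were 1.47, 1.48, 2.83 and 1.02. On day 4 they were 2.30, 3.37, 2.60 and 1.77 after 6.7 Gy and 2.80, 2.97, 3.27 and 2.50 after 7.4 Gy. Control replicate 3 lay within the day 4 range, and the other 3 controls lay below every day 4 array. On day 7 CHGB was 1.02, 0.92, 0.79 and 1.27 after 6.7 Gy and 1.68, 1.34, 1.31 and 1.59 after 7.4 Gy, all below day 4. On day 12 it was 1.92 after 6.7 Gy, in 1 array since the spot of the other was an outlier, and 1.97 and 2.03 after 7.4 Gy.

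CHGB was 2.28-fold higher than control on day 4 after 7.4 Gy (1.19, SE 0.33, adjusted p = 0.0159) and differed by 0.81 after 6.7 Gy (SE 0.33, adjusted p = 0.120). It fell 2.75-fold from day 4 to day 7 (-1.46, SE 0.23, adjusted p = 0.000255). On day 12 it was 0.74 below day 4 (SE 0.33, adjusted p = 0.107) and 0.72 above day 7 (SE 0.33, adjusted p = 0.487), neither of them called. The day 4 call was lost without control replicate 4 (0.96, adjusted p = 0.0599) or without replicate 3 of day 4 after 7.4 Gy (1.06, adjusted p = 0.0519), and under 5 of 22 other settings. The 2 slides that held both groups gave differences of -0.02 and 1.95.

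The brightest CHGA probe read 5.12, 6.17 and 4.75 in 3 control arrays, the 4th being an outlier spot that was dropped. On day 4 it read 5.86, 6.0, 6.34 and 5.61 after 6.7 Gy and 6.41, 6.18, 6.29 and 5.80 after 7.4 Gy, and on day 7 4.97, 4.83, 5.11 and 4.73 after 6.7 Gy. On day 7 after 7.4 Gy it read 5.57, 5.32 and 5.64, with 1 outlier spot dropped, and on day 12 5.72 and 5.56 after 6.7 Gy and 5.69 and 5.23 after 7.4 Gy. The day 4 arrays overlapped control through control replicate 3, at 6.17. CHGA on day 4 after 7.4 Gy was 1.77-fold higher than control (0.82, SE 0.26, adjusted p = 0.0343), under the 2-fold limit and so not called, and the second probe gave 0.87 (adjusted p = 0.0444) and the third 0.70 (adjusted p = 0.0692).

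Between days 4 and 7 the 3 CHGA probes gave -0.85 (SE 0.18, adjusted p = 0.00236), -0.85 (SE 0.21, adjusted p = 0.0065) and -1.02 (SE 0.19, adjusted p = 0.000774), so that all passed the adjusted p and the third alone passed 2-fold. CHGA was called on day 4 after 7.4 Gy with spike-in scaling (1.08, adjusted p = 0.00849). With the mean of its probes it was called there (1.18, adjusted p = 0.0492) and from day 4 to day 7 (-1.11, adjusted p = 0.00921). Both changes by that mean are larger than those of any single probe. The brightest spot was dropped in control replicate 1 and in replicate 3 of day 7 after 7.4 Gy. The mean there held only the dimmer probes and so was lower, and these calls add no evidence. Without control replicate 3, CHGA and CHGB were called on day 4 at both doses, with changes of 1.02 and 1.23 for CHGA and 1.19 and 1.56 for CHGB.

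TPH1 encodes tryptophan hydroxylase 1, which carries out the first and limiting step of serotonin synthesis in enterochromaffin cells. Its brighter probe read between 0.15 and 0.91 in control and between 0.05 and 1.18 in the irradiated groups, so every group overlapped control. No comparison called either probe, and the changes of the brighter probe against control ran from -0.07 to 0.34 (SE 0.19 or 0.24). For the dimmer probe, 2 of 4 control spots were above background and the changes against control ran from -0.16 to 0.51.

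**Figure D2:**
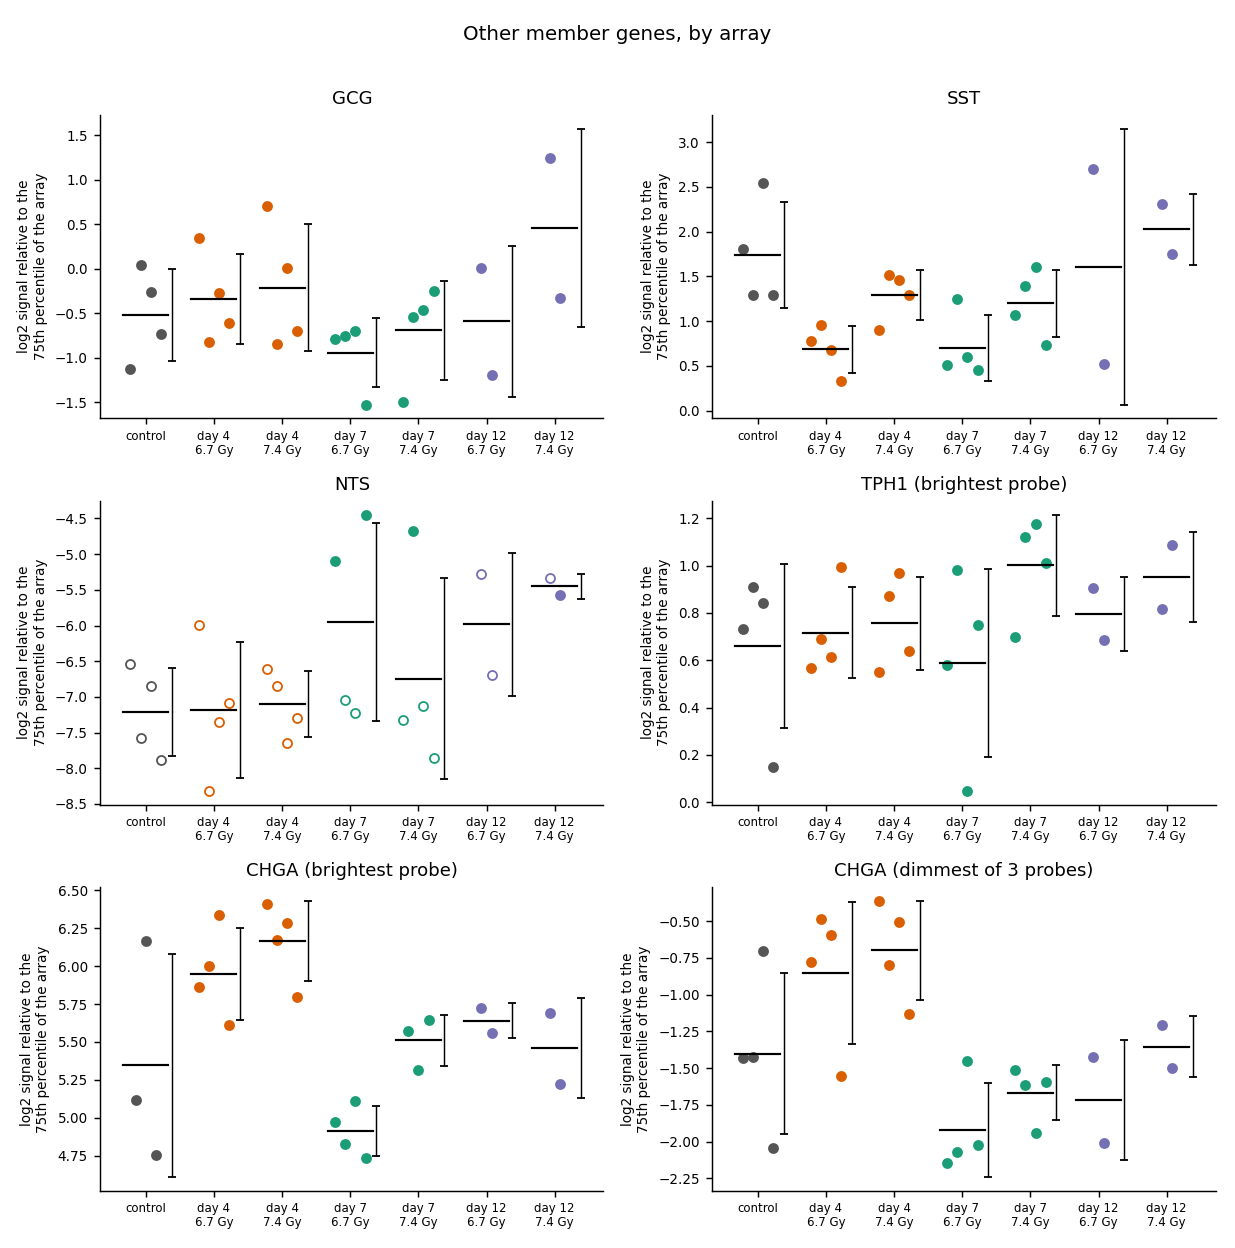
Log2 signal of GCG, SST, NTS, TPH1 and CHGA relative to the 75th percentile of each array (vertical axis) in the control group and the 6 dose-by-day groups (horizontal axis), with points, lines and bars as for the genes above. GCG and TPH1 overlap control in every group, NTS is above background in 4 arrays of days 7 and 12, and the brightest and dimmest CHGA probes are both highest on day 4.

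Over the time contrasts, day 7 against day 4 called 3 of the 9 genes, with GIP and INSL5 higher and CHGB lower, beside 4.84% of all genes. Day 12 against day 4 called 3, GIP, INSL5 and PYY, all higher, beside 7.35%, and day 12 against day 7 called 1, PYY, beside 0.135%. Days 7 and 12 were both set against the same 8 arrays of day 4. The dose contrasts called none of the 9 genes by limma or by the methods' t-test on any day, beside 0% of all genes. At an unadjusted p under 0.05, 2 members passed between the doses on day 4 (GIP, -1.38, SE 0.59, and INSL5, -1.94, SE 0.77), 2 on day 7 (CHGA, 0.60, SE 0.26, and TPH1, 0.41, SE 0.19) and 0 on day 12. So the calls on day 4 that were made after 7.4 Gy and missed after 6.7 Gy are not shown to differ by dose.

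**Figure D3:**
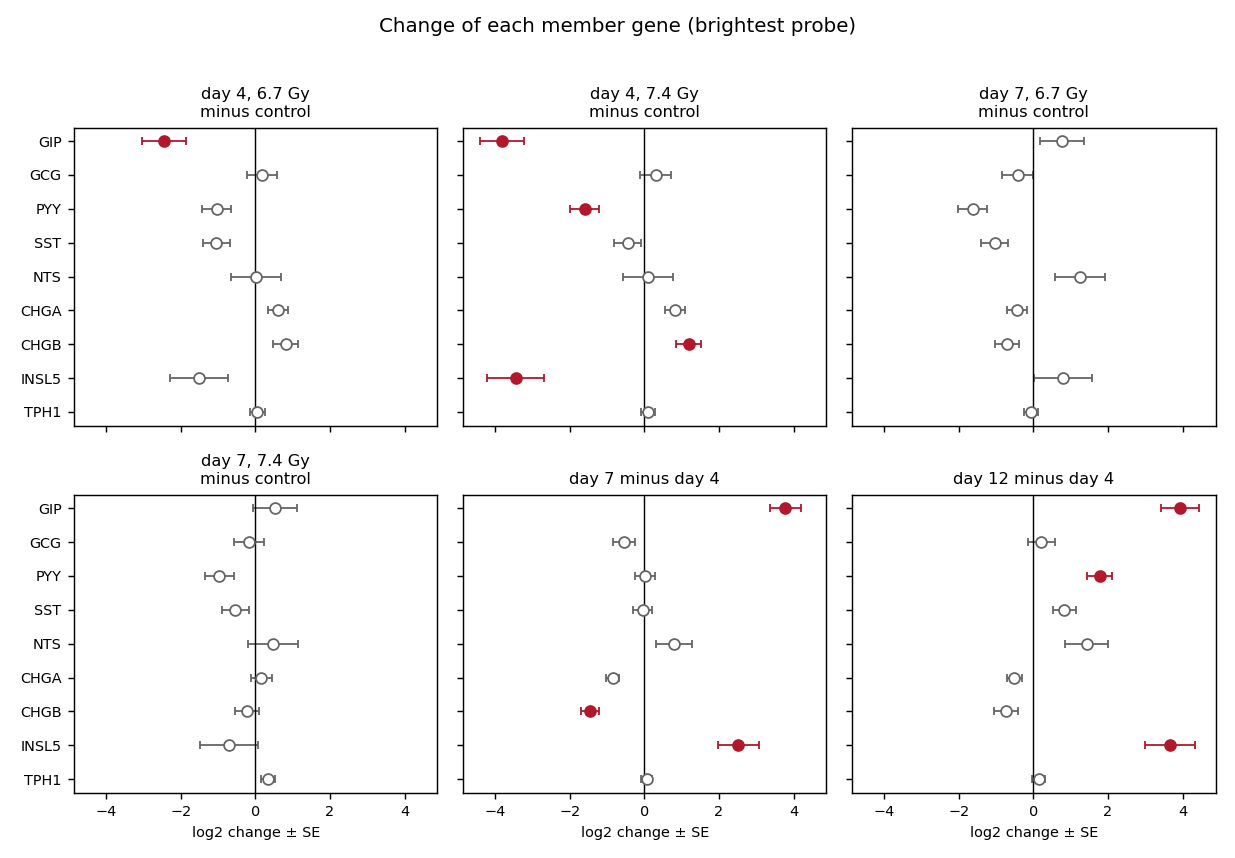
Log2 change with its SE (horizontal axis) of the 9 member genes (vertical axis) in 4 contrasts against control and the contrasts of days 7 and 12 with day 4. Filled red points mark the called genes. GIP and INSL5 have the largest changes among the members in the day 4 contrasts and in both time contrasts. Both are lower on day 4 than in control and higher on days 7 and 12 than on day 4, and CHGB moves the other way in these contrasts.

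Arrays shared slides of 4 across groups, which gave differences within a slide. On the 2 slides that held control and day 4 after 7.4 Gy, the difference was -3.87 and -2.67 for GIP, -5.36 and -1.90 for INSL5 and -1.0 and -1.91 for PYY. For GIP after 6.7 Gy it was -1.30 and -1.50 on the 2 shared slides, both of scan day 1, while within scan day 2 it was -3.49 and within position 1 it was -3.61. Without replicate 2 of day 4 after 6.7 Gy the GIP change was -1.68 and still called (adjusted p = 0.0371). From day 4 to day 7 all 6 slides gave the direction of the pooled value, with 1.72 to 5.30 for GIP, 0.33 to 5.93 for INSL5 and -2.02 to -0.52 for CHGB. All 4 slides with day 4 and day 12 arrays also did so, with 3.19 to 5.46 for GIP, 2.0 to 8.98 for INSL5 and 1.51 to 2.39 for PYY. Between days 7 and 12, PYY differed by 0.85 to 3.18 over 4 slides.

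Other genes of the hormone-producing system were counted in lists. Of 12 further gut peptides, 9 were tested, and on day 4 MLN, which encodes the motility hormone motilin, fell after 7.4 Gy (-1.03, SE 0.29, adjusted p = 0.0176) and rose from day 4 to day 7 (1.16, adjusted p = 0.000523) and to day 12 (1.01, adjusted p = 0.00682). ADM, which encodes the vasodilator adrenomedullin and is expressed in many cell types, rose on day 4 by 1.51 after 6.7 Gy and 1.65 after 7.4 Gy (SE 0.45, adjusted p = 0.0379 and 0.0136). The other 7 were not called in any contrast, and the list's median on day 4 was 0.01 and -0.07, beside -0.04 and -0.03 over all genes.

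Among granins and hormone processing genes 12 of 15 were tested, 2 of them the members CHGA and CHGB. PCSK1, the prohormone convertase that cuts proglucagon and other precursors, read -4.53 to -3.40 in control, -2.79 to -1.76 on day 4 after 6.7 Gy and -3.02 to -1.54 after 7.4 Gy. Every day 4 array lay above every control array. PCSK1 rose 3.03-fold after 6.7 Gy (1.60, SE 0.29, adjusted p = 0.00301) and 3.65-fold after 7.4 Gy (1.87, SE 0.29, adjusted p = 0.000300). It fell again to day 7 (-1.56, SE 0.21, adjusted p = 5.15e-05) and day 12 (-1.10, SE 0.25, adjusted p = 0.00398). PCSK1 and CHGB were the called genes of this list, and its median was 0.12 and 0.30 on day 4 and -0.46 from day 4 to day 7.

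Of 19 transcription factors of the enteroendocrine lineage 11 were tested, while NEUROG3 and NKX2-2 were too dim to test. ATOH1, which sets the secretory fate of goblet and endocrine cells together, fell on day 4 by 1.32 after 6.7 Gy and by 2.17 after 7.4 Gy (SE 0.38, adjusted p = 0.0343 and 0.000737), and rose from day 4 to day 7 (1.46, adjusted p = 0.000742) and day 12 (1.69, adjusted p = 0.00124). LMX1A, a factor of enterochromaffin cells, rose on day 4 after 7.4 Gy (1.01, SE 0.29, adjusted p = 0.0191). PAX6 was called from day 4 to day 12 alone (1.02, adjusted p = 0.00459). The median of the list was -0.23 and -0.34 on day 4.

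In the serotonin pathway 10 of 12 genes were tested, TPH1 among them. SLC6A4, the transporter that removes serotonin from the mucosa, fell on day 4 after 6.7 Gy (-2.92, SE 0.75, adjusted p = 0.0191) and after 7.4 Gy (-3.80, SE 0.75, adjusted p = 0.00171). Its spot was above background on 3 and 2 of 4 arrays there, so these sizes rest in part on spots at background. MAOA, which breaks serotonin down, fell after 7.4 Gy (-1.35, SE 0.23, adjusted p = 0.000528). Both rose from day 4 to day 7, by 2.38 and 1.22 (adjusted p = 0.00294 and 5.15e-05), and to day 12, by 3.06 and 1.34 (0.00227 and 0.000130), whereas TPH1 was not called in these contrasts. The receptor gene HTR7 fell from day 4 to day 7 (-1.02, adjusted p = 0.00414). The list's median was -0.56 and -0.60 on day 4.

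Among sensors of nutrients and microbial products 16 of 17 genes were tested. SLC5A1, the sodium-glucose cotransporter through which K and L cells sense sugar and enterocytes absorb it, rose 4.23-fold on day 4 after 6.7 Gy (2.08, SE 0.41, adjusted p = 0.00478) and 3.85-fold after 7.4 Gy (1.94, SE 0.41, adjusted p = 0.00286), and fell from day 4 to day 12 (-1.46, adjusted p = 0.00601). Its 8 day 4 arrays all lay above the controls, in the direction opposite to GIP. GPRC6A, an amino acid receptor gene, was above background on 3 of 8 arrays of day 4 and 0 of the 12 arrays of days 7 and 12. It was called at least 1.33-fold lower on day 7 than on day 4 (adjusted p = 0.0164) and at least 1.27-fold lower on day 12 (0.0211). Most of the spots compared were at background. These folds lie under the 2-fold limit, so a 2-fold fall of GPRC6A is not shown. The other 14 were not called in any contrast, and the list's median on day 4 was -0.22 and -0.14.

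Of 23 hormone receptors and inactivating peptidases 18 were tested. RXFP4, the receptor of INSL5, was 2.19-fold lower than control on day 4 after 7.4 Gy (-1.13, SE 0.23, adjusted p = 0.00196) and 2.21-fold lower on day 7 after 7.4 Gy (-1.15, SE 0.23, adjusted p = 0.0254). All 16 arrays of days 4 and 7 lay below the controls, and the change from day 4 was -0.03 to day 7 (SE 0.16, adjusted p = 0.899) and 0.94 to day 12 (SE 0.20, adjusted p = 0.00206), the latter under 2-fold and so not called. This last value pools doses that differed on day 12. After 6.7 Gy RXFP4 read -2.39 and -2.35, above all controls (-3.15 to -2.54). After 7.4 Gy it read from -3.54 to -3.30, still below all controls. The receptors of peptide YY and neuropeptide Y, NPY5R and NPY1R, were at background on part of the day 4 arrays. NPY5R fell on day 4 at both doses (-2.86 and -3.43, SE 0.74, adjusted p = 0.0204 and 0.00341). Over both doses it rose from day 4 to days 7 and 12 (1.82 and 2.22, adjusted p = 0.0155 and 0.0168). On day 12 the doses differed for NPY5R too. Its mean was -2.55 after 6.7 Gy, beside -2.93 in control. After 7.4 Gy it was -5.16, with both arrays below all controls and 1 of 2 above background. NPY1R fell on day 4 after 7.4 Gy (-3.42, SE 1.06, adjusted p = 0.0285). The median of the list was -0.23 and -0.27 on day 4.

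**Figure D4:**
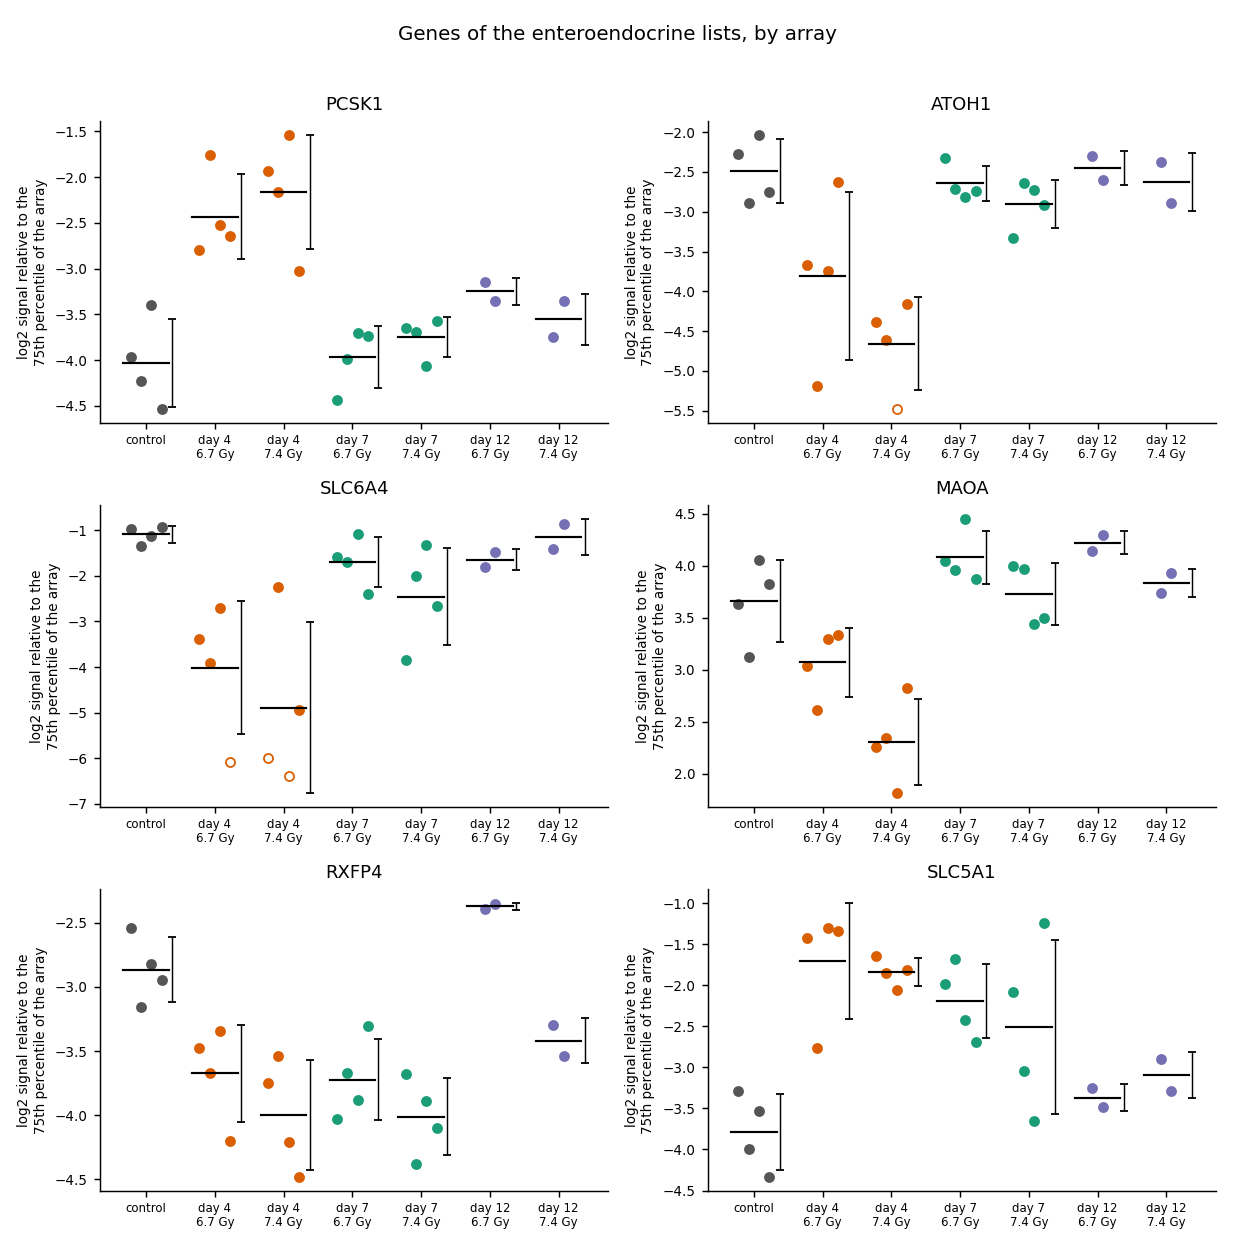
Log2 signal of PCSK1, ATOH1, SLC6A4, MAOA, RXFP4 and SLC5A1 relative to the 75th percentile of each array (vertical axis) in the control group and the 6 dose-by-day groups (horizontal axis), with points, lines and bars as for the genes above. PCSK1 and SLC5A1 are higher on every day 4 array than in control, SLC6A4 is lower on every day 4 array, and RXFP4 stays below control through day 7.

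Some markers of other epithelial cells were called lower on day 4, where 1.81% of all genes were called lower after 6.7 Gy and 3.93% after 7.4 Gy. On day 4 after 7.4 Gy GIP, INSL5 and PYY were called lower too, while CHGB and PCSK1 were called higher. Of the 10 tested absorptive colonocyte markers, 6 fell after 6.7 Gy and 8 after 7.4 Gy. From day 4, 8 of these markers rose to day 7 and 8 to day 12, where 2.57% and 4.04% of all genes were called higher. Their mean log2 signal per array ran from 4.43 to 4.84 in control, from 1.18 to 2.99 and from -0.13 to 2.89 on day 4, and from 2.37 to 4.50 on day 7, in the direction of GIP and INSL5. CA1 was called lower on day 4 at both doses (adjusted p = 0.00129 and 5.87e-05), with its spot above background on 2 of 4 arrays after 6.7 Gy and 1 of 4 after 7.4 Gy. Of 9 goblet cell markers, ATOH1 again among them, 1 and 3 fell on day 4, with means of 1.19 to 1.55 in control and -0.14 to 1.5 on day 4, and of 8 pan-epithelial markers 2 and 3 fell, with means of 3.54 to 3.72 and 2.50 to 3.31. The part of these cells in the changes of the hormone genes was not tested.

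For the genes that were higher on day 4, enteric neurons also express chromogranins. Of 15 tested neuron and glia markers none was called on day 4 by limma or by the methods' t-test, and 1 passed an unadjusted p under 0.05 after 6.7 Gy and 3 after 7.4 Gy. Their means ran from -1.70 to -1.28 in control, from -1.94 to -0.93 on day 4 after 6.7 Gy and from -1.30 to -0.74 after 7.4 Gy, with a median change of -0.12 and 0.43. Their median change from day 4 to day 7 was -0.42 and VIP was called lower (-1.06, adjusted p = 0.0419). Their part in the changes of CHGA and CHGB was not tested. Of 7 mast cell markers, which can also make serotonin, limma and the methods' t-test called 0 on day 4, with 2 at an unadjusted p under 0.05 at each dose, and HDC and GATA2 were lower on day 12 than on day 4. Of 4 smooth muscle markers none was called by limma or passed an unadjusted p under 0.05 against control or between the days.

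Markers of tissue from outside the colon had low list means, but single genes differed in level and direction. Of 7 tested small intestinal enterocyte markers, MTTP was above background on none of the control arrays and all 4 of day 4 after 7.4 Gy, where it was called at least 1.92-fold higher (adjusted p = 0.00845), and APOB was lower on day 12 than on day 4. The mean of this list ran from -3.58 to -2.90 in control and -3.28 to -2.36 on day 4. Of 7 tested pancreas markers, PRSS1 and CTRB1 were called higher on day 4 after 7.4 Gy (2.56 and 1.39, adjusted p = 0.0257 and 0.000103) and CPB1 on day 12 against day 4, with list means of -3.26 to -2.46 in control and -2.73 to -1.51 on day 4 after 7.4 Gy.

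The genes most like each called member were found by Pearson correlation of log2 signal over the arrays, among 12710 named genes. GIP was followed most closely by SLC44A1 (0.958), NXPE4 (0.955) and C12H2orf88 (0.954), and INSL5 by TMEM54 (0.874), CCNG2 (0.859) and JUP (0.855), over 24 arrays each. For CHGB they were SLC7A8 (0.900), NDNF (0.887) and the convertase gene PCSK1 (0.879), over 23 arrays. For PYY they were ZNF616 (0.789), AQP3 (0.782) and LGR6 (0.773), over 24 arrays. The arrays share their dose and day groups, so these values describe patterns over the groups as much as between animals.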

How the data were processed

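Colon RNA of 24 animals was labelled with Cy3 and hybridized to 1-colour Agilent rhesus arrays, 1 array per animal without pooling. Per the file headers, the authors extracted each spot with Feature Extraction and deposited the background-subtracted processed signal as an intensity. The authors also deposited a raw intensity table, within 0.001 of the scanner values on the log2 scale for 100% of values, and a normalized log2 table centred per probe, which served as an alternative. Groups came from the labels of the samples.

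The log2 processed signal minus its array's 75th percentile was analysed. Control spots were left out, the 24 to 712 outlier spots of each array were dropped, and replicate spots were averaged by probe. Probes above background on at least 2 of 24 arrays were kept. limma 3.58.1 under R 4.3.3 fitted 1 mean per group to 38214 probes of 24 arrays, with two-sided p-values adjusted by Benjamini-Hochberg within each of 12 contrasts over all probes. The study's methods name a t-test, run as an alternative. Folds given as "at least" compare the brighter mean with, per array of the dim group, the larger of its dimmest spot signal above background and the measured value of the probe. Gene names came from the series table for 18640 probes and, for names alone, from a RefSeq table of the assembly T2T-MMU8v2.0 for 3268 more, while 1887 had a LOC number and 19808 none.

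The members and gene lists were chosen with earlier results of these data known. All members were named, with, per list, at most 4 genes called in most of the 6 contrasts against control, and the 3 genes most correlated with each called member. PAX6, HTR7, GPRC6A, VIP, HDC, GATA2, APOB and CPB1 were named after their values were seen. The scripts were tested on simulated data. Alternatives covered background correction, scaling, filters, thresholds, tests, blocks for slide, position, scan day and replicate number, and leaving out each array. Same-numbered arrays did not deviate together (correlations from -0.229 to 0.236), so the numbers do not pair animals. Arrays of the same slide deviated together slightly, with a median correlation of 0.126 beside -0.020 for arrays of other slides. The main fit held no term for slide, which was taken up only in the alternatives. The number of animals limits the precision.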

Additional observations from a re-analysis of the deposited data

Results flagged for a closer look

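GCG on day 7 after 6.7 Gy read -1.53 in replicate 4 and -0.78, -0.76 and -0.70 in the other 3 arrays, a gap large for the range of the group. It was the only such array among 58 sets of 4 values over the 12 probes, where chance alone gives about 1 in 20. This is no more than chance alone would give.

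Between days after exposure, 4 member genes by their brightest probe, and CHGA by its dimmest probe alone, differed by a test of the difference itself in limma. In comparisons with day 4, day cannot be told apart from array position. From day 4 to day 7 the log2 changes were 3.78 for GIP, 2.52 for INSL5, -1.46 for CHGB and -1.02 for the third CHGA probe. From day 4 to day 12 they were 3.93 for GIP, 3.67 for INSL5 and 1.78 for PYY, and from day 7 to day 12 PYY changed by 1.75. The effect of dose was not called for any member on any day.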

How the results depend on the processing

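No called change of a member reversed under any alternative. The calls of GIP on day 4 after 7.4 Gy, of GIP and INSL5 from day 4 to days 7 and 12, of CHGB from day 4 to day 7 and of PYY from day 4 to day 12 were kept under every alternative fitted and without each array. Against control, 5 calls were made over the 6 groups. This was 8 with normexp background correction and with an adjusted p under 0.10, 1 with the methods' t-test, and 3 with the groups compared alone and with slide as a fixed block, and leaving out 1 array gave 4 to 8, with 8 without control replicate 3 and 7 without replicate 1 of day 4 after 7.4 Gy (PYY also called after 6.7 Gy on days 4 and 7). Of day 12 against day 7 the 1 call became 0 with median scaling, no filter, the methods' t-test, the groups compared alone, scan day, array position and both as fixed blocks. With the replicate number as a block (replicate block) it also became 0, with a PYY change of 1.74, and the block changed no other count by over 1.5 times. Leaving out 1 array gave 0 to 2 there. The call of PYY was lost without replicate 1 of day 4 or replicates 1, 3 or 4 of day 7 after 6.7 Gy, replicate 4 of day 4 or replicates 1 or 4 of day 7 after 7.4 Gy, replicate 1 of day 12 after 6.7 Gy, or either day 12 array after 7.4 Gy (changes from 1.44 to 1.89, highest adjusted p = 0.256). Without replicate 2 of day 12 after 6.7 Gy, SST was called as well (1.41 against day 7 and 1.37 against day 4). Position as a fixed block could not be fitted for days 7 and 12 against control or day 4. Of the 5 calls against control, all on day 4, position as a fixed block, alone or with scan day, kept the 2 of GIP and lost those of CHGB, INSL5 and PYY (adjusted p = 0.0512, 0.185 and 0.103 with position, and 0.369, 0.312 and 0.384 with both). GIP was then -3.61 and -6.15 at 6.7 and 7.4 Gy with position. The cause of these shifts was not tested. Signal over background limits GIP and INSL5 on day 4 and NTS throughout.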
